A study of Mus musculus with 9 samples.

Results

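Cytochrome P450 genes outside the Cyp4a subfamily were described in the renal cortex of diabetic mice, with and without rosiglitazone. They were taken by gene symbol, leaving out Cyp4a and the vitamin D hydroxylases Cyp24a1 and Cyp27b1. Such a symbol was held by 89 of the 21950 genes with mRNA values, and 41 of these reached a mean of at least 0.1 FPKM over the 9 libraries (fragments per kilobase of transcript, scaled to the mapped fragments of the library and summed over the transcripts of a gene). The rule used only the mean over all libraries and no comparison between groups. Each group held 3 male mice on the C57BL/KsJ background, with 1 library per mouse. The control group was db/m littermates, which carry 1 intact copy of the leptin receptor gene, and received vehicle. The dbdb group was db/db mice, which lack the signalling leptin receptor and become obese and diabetic, and also received vehicle. The dbR group was db/db mice given rosiglitazone, which activates the nuclear receptor PPARγ, at 20 mg/kg/day. The db/db mice were gavaged for 8 weeks, from 7 to 15 weeks of age, and all mice were 15 weeks old at sampling. No group of rosiglitazone-treated db/m mice was analysed here.

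P450 enzymes are haem proteins of the endoplasmic reticulum or the mitochondrion that insert an oxygen atom into their substrates, with electrons from P450 reductase or from ferredoxin. Members of the CYP1 to CYP3 families are best known for oxidising drugs and other foreign compounds, but CYP2C and CYP2J enzymes also turn arachidonic acid into epoxides, which act on renal vessels and on sodium transport. Other families act on sterols, bile acids and retinoic acid, and the CYP4 family hydroxylates fatty acids at the end of the chain. In the kidney most P450 activity lies in the proximal tubule, and several P450 genes of the mouse kidney are known for higher levels in males than in females.

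Of the 41 genes, 19 differed between dbdb and control mice at an adjusted p under 0.05 in limma, against 26.4% of all 14537 genes tested. The most abundant of them were lower in dbdb mice (Cyp4b1, Cyp2e1 and Cyp2j5), and the deepest difference was in Cyp7b1. Counted by genes, 12 were higher and 7 lower, against 13.1% and 13.4% of all genes. The median log2 fold change over the 41 genes was 0.32, beside -0.003 over all genes. In dbR vs. dbdb 2 of the 41 genes passed the test, Cyp2c44 and Cyp2d12, both upward, against 0.743% of all genes. Neither call was kept in every alternative, and both were lost without dbdb replicate 1, dbR replicate 2 or dbR replicate 3. Fold changes are given on the log2(FPKM + 0.1) scale with their standard error, and the adjustment covered all genes tested.

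The remaining 48 genes with such a symbol lay under the minimum. Of these, 22 were listed at 0 in all 9 libraries: Cyp11b1, Cyp11b2, Cyp19a1, Cyp1a2, Cyp2a22, Cyp2b19, Cyp2c37, Cyp2c39, Cyp2c50, Cyp2c54, Cyp2c66, Cyp2c67, Cyp2c70, Cyp2d11, Cyp2w1, Cyp3a16, Cyp3a25, Cyp3a41a, Cyp3a41b, Cyp3a44, Cyp4f40 and Cyp7a1. The other 26 had some signal: Cyp11a1, Cyp21a1, Cyp26c1, Cyp2a12, Cyp2b13, Cyp2b23, Cyp2c29, Cyp2c38, Cyp2c40, Cyp2c55, Cyp2c65, Cyp2d10, Cyp2d34, Cyp2d37-ps, Cyp2d40, Cyp2j12, Cyp2r1, Cyp2t4, Cyp3a11, Cyp3a57, Cyp3a59, Cyp4f18, Cyp4f37, Cyp4f39, Cyp4x1 and Cyp8b1. The genes just outside the minimum were Cyp2c38 at 0.0767 FPKM, Cyp26c1 at 0.0662 FPKM and Cyp4f18 at 0.0642 FPKM. Those just inside were Cyp2g1 at 0.105 FPKM, Cyp17a1 at 0.106 FPKM and Cyp2b10 at 0.12 FPKM. Cyp2b10 passed through 1 library, control replicate 3 at 0.645 FPKM, while the other 8 lay between 0.0182 and 0.150 FPKM. Cyp17a1 passed through the db/db groups, with means of 0.121 FPKM in dbdb and 0.159 FPKM in dbR mice against 0.0372 FPKM in control, so no difference from control is read from it.

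The libraries were of similar depth, and markers of the labelled tissue were present. Low FPKM steps gave a relative depth of 0.917 to 1.14, with control replicate 1 as 1. Correlations of log2 values between pairs of libraries lay between 0.971 and 0.992. Mitochondrial genes held 26.9% to 32.8% of the summed FPKM. All 10 proximal tubule markers were measured, with sums of 5118 to 5205 FPKM in control, 4312 to 5155 FPKM in dbdb and 4757 to 4971 FPKM in dbR mice. Single markers moved in both directions, with Slc5a2 and Slc5a12 higher (0.42 and 0.55 on the log2 scale) and Slc22a6 and Slc27a2 lower (-0.58 and -0.66) in dbdb mice than in control, and 3 higher and 2 lower in dbR mice than in control. In bulk tissue, fewer cells of a type and less RNA per cell cannot be told apart, so every difference given here is one of the cortex as a whole.

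**Figure D1:**
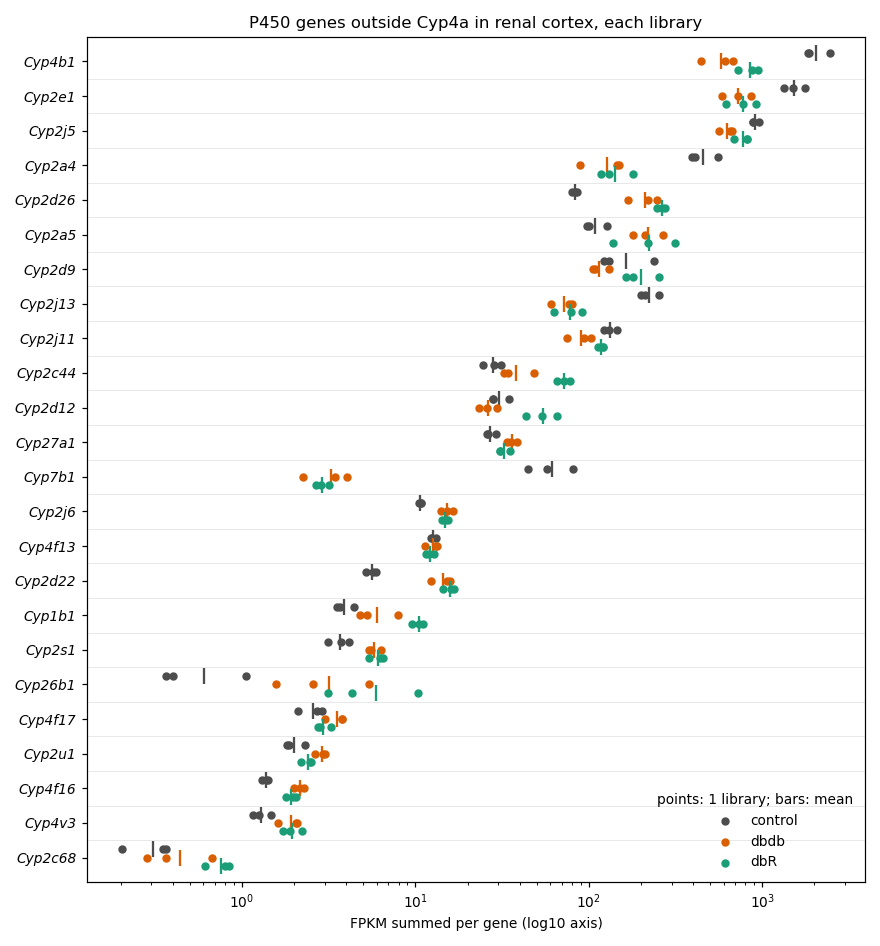
FPKM of the 24 P450 genes that had a mean of at least 10 FPKM or differed in at least 1 comparison, on a log10 axis, with 1 point per library, a bar for each group mean and a colour for each group. Cyp4b1, Cyp2e1, Cyp2j5, Cyp2a4, Cyp2j13 and Cyp7b1 are highest in the control libraries, and the control libraries of Cyp7b1 (44.4 to 81.1 FPKM) lie far to the right of all others.

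The chief sequence question among these genes was whether reads of Cyp2a4 and Cyp2a5 could be told apart, since the 2 genes moved in opposite directions. Both lie on chromosome 7 of GRCm38, on the forward strand, Cyp2a4 at chr7:26307169-26315088 and Cyp2a5 at chr7:26835305-26843548 (GENCODE M21). Their coding sequences were 98.5% identical, with 23 of 1485 bases differing. The longest run without a difference was 216 bases, and 5.01% of 150-base windows held none. The 120-base stretch with the most differences, bases 550 to 669 of the coding sequence, held 6 of them, which are in capitals.
Cyp2a4: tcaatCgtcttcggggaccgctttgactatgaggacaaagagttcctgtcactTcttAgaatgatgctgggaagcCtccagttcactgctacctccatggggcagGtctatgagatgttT
Cyp2a5: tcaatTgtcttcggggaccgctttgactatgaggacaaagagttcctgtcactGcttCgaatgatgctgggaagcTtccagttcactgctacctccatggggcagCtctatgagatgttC
Their promoters were as close. Over 249 bases before the RefSeq start (GRCm38.p6, forward strand), 4 bases differed, again in capitals, at chr7:26306943-26307191 for Cyp2a4 and chr7:26835089-26835337 for Cyp2a5.
Cyp2a4 promoter: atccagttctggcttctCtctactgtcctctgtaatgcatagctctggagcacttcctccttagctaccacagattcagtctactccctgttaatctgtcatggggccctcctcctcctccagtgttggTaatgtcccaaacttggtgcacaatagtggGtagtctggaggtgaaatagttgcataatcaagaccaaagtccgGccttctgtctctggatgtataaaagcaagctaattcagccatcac
Cyp2a5 promoter: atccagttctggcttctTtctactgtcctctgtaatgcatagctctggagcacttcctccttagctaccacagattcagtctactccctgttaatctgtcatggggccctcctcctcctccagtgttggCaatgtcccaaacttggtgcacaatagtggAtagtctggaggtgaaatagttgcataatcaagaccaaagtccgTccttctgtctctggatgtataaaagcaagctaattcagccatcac

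Cyp2a4, a steroid hydroxylase, was at 407, 392 and 559 FPKM in control, 89.5, 149 and 145 FPKM in dbdb, and 117, 130 and 179 FPKM in dbR mice. Every control library lay above every library of the other groups. The log2 fold change was -1.84 ± 0.22 for dbdb vs. control (adjusted p = 0.000342) and -1.68 ± 0.22 for dbR vs. control (adjusted p = 0.000658). Cyp2a5, a coumarin hydroxylase, was at 100, 97.0 and 127 FPKM in control, 267, 211 and 179 FPKM in dbdb, and 138, 219 and 312 FPKM in dbR mice. Here the control libraries were the lowest, and the log2 fold change was 1.01 ± 0.26 for dbdb vs. control (adjusted p = 0.0175) and 0.98 ± 0.26 for dbR vs. control (adjusted p = 0.0214). The Cyp2a5 call in dbdb vs. control was lost without control replicate 1, control replicate 2 or dbdb replicate 1, at adjusted p of 0.0524, 0.0562 and 0.0571. In dbR vs. control it was lost without control replicate 1, control replicate 2, dbR replicate 2 or dbR replicate 3, at adjusted p of 0.0613, 0.0668, 0.0636 and 0.0571.

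Cyp2a4 made up 80.6% ± 0.744 (SD, n = 3) of the summed FPKM of the pair in the control group, against 37.1% ± 10.5 for dbdb and 39.9% ± 5.30 for dbR mice. The sum itself, which does not rest on how reads were divided between the 2 genes, was 508, 489 and 686 FPKM in control, 356, 359 and 324 FPKM in dbdb, and 255, 350 and 492 FPKM in dbR mice. The dbR libraries overlapped the control libraries, while the dbdb libraries did not. Tested as 1 gene, the pair was lower than in control mice, with a log2 fold change of -0.68 ± 0.21 for dbdb (adjusted p = 0.0368) and of -0.65 ± 0.21 for dbR mice (adjusted p = 0.0457). How reads matching both genes were shared is not given in the sources used here, so the separate values of the 2 genes are less certain than their sum.

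**Figure D2:**
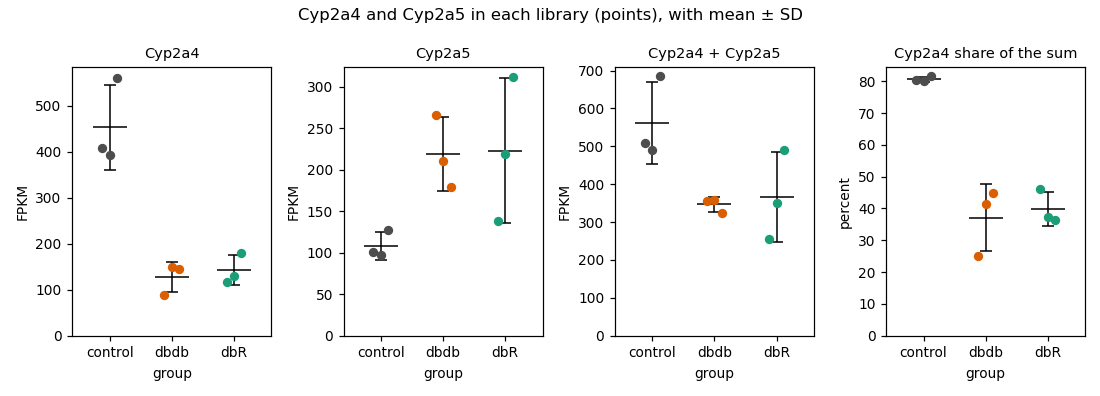
FPKM of Cyp2a4, of Cyp2a5 and of their sum, and the share of Cyp2a4 in the sum in percent, by group, with 1 point per library and the mean ± SD. Cyp2a4 falls and Cyp2a5 rises from control to dbdb, and the share of Cyp2a4 drops from 80.6% to 37.1%.

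The genes of sterol, bile acid and retinoid metabolism held both the deepest fall and the steepest rise. Among 8 measured of 17 matched, 2 were higher, 1 was lower and 5 did not pass the test in dbdb vs. control, against 13.1% of all genes higher and 13.4% lower. Cyp7b1, the oxysterol hydroxylase of the alternative bile acid pathway, which also hydroxylates steroids, was at 57.5, 44.4 and 81.1 FPKM in control, 3.45, 2.24 and 4.05 FPKM in dbdb, and 3.18, 2.69 and 2.87 FPKM in dbR mice. The lowest control library was over every dbdb and dbR library by a wide margin. The ratio of the means was 18.8-fold between control and dbdb, with a log2 fold change of -4.19 ± 0.23 (adjusted p = 7.55e-06). In dbR vs. control the log2 fold change was -4.30 ± 0.23 (adjusted p = 6.09e-06), and in dbR vs. dbdb it was -0.11 ± 0.23 (adjusted p = 0.843). Cyp7b1 has a single transcript in the tables and no near-identical P450 gene.

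Cyp26b1, which hydroxylates and so clears retinoic acid, ran the other way. It was at 1.06, 0.399 and 0.364 FPKM in control, 2.56, 5.41 and 1.57 FPKM in dbdb, and 4.30, 3.12 and 10.4 FPKM in dbR mice. All control libraries were lower than all others, but the spread within each group was the widest among the genes that changed. The log2 fold change came to 2.17 ± 0.53 for dbdb vs. control (adjusted p = 0.0150), 3.04 ± 0.53 for dbR vs. control (adjusted p = 0.00304) and 0.87 ± 0.53 for dbR vs. dbdb (adjusted p = 0.441). The call in dbdb vs. control was lost without control replicate 2, control replicate 3 or dbdb replicate 2, at adjusted p of 0.0503, 0.0528 and 0.0536. Its signal was divided between 2 transcripts, which held 53.0% and 46.4% of it and had log2 fold changes of 2.30 and 1.83 in dbdb vs. control (adjusted p = 0.0693 and 0.0706).

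Cyp27a1, the mitochondrial sterol hydroxylase of bile acid synthesis, was at 26.2, 25.9 and 29.1 FPKM in control, 38.8, 35.6 and 33.8 FPKM in dbdb, and 30.7, 30.9 and 35.2 FPKM in dbR mice. It was higher in dbdb vs. control (log2 fold change 0.41 ± 0.08, adjusted p = 0.00452). In dbR vs. control it was just past the threshold (0.25 ± 0.08, adjusted p = 0.0444), and that call was lost without control replicate 1, control replicate 2, dbdb replicate 2 or any 1 dbR replicate, at adjusted p between 0.0578 and 0.146. The retinoic acid hydroxylase Cyp26a1, the oxysterol hydroxylase Cyp39a1, the brain cholesterol hydroxylase Cyp46a1, the steroidogenic Cyp17a1 and Cyp20a1, whose substrate is not settled, did not pass the test in any comparison. Cyp39a1 passed in dbR vs. control under several alternatives, and there Cyp46a1 passed without dbR replicate 2. Cyp17a1, which the adrenal cortex also expresses, was at most 0.241 FPKM in any library. Of 7 adrenal cortex markers, Nr5a1 was listed at 0 in all 9 libraries, while Star averaged 1.01 FPKM and Akr1b7 2.13 FPKM. Hsd3b1, at 0.560 FPKM on average, was higher than in control, by 1.81 on the log2 scale for dbdb (adjusted p = 0.000188) and 1.45 for dbR mice (adjusted p = 0.000671), and Akr1b7 was lower in dbdb mice (-0.62, adjusted p = 0.0412). All 4 adrenal medulla markers were listed at 0.

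The CYP2J genes, a cluster on chromosome 4 that includes arachidonic acid epoxygenases, did not move as 1 unit. Of 7 measured of 8 matched, 3 were lower and 1 was higher in dbdb vs. control, against 13.4% and 13.1% of all genes. Cyp2j13 was at 211, 199 and 254 FPKM in control, 76.5, 79.8 and 60.5 FPKM in dbdb, and 62.7, 91.8 and 79.3 FPKM in dbR mice. No library of either db/db group reached the control range, and the log2 fold change was -1.61 ± 0.15 for dbdb vs. control (adjusted p = 9.17e-05) and -1.51 ± 0.15 for dbR vs. control (adjusted p = 0.000143).

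Cyp2j5, the most abundant epoxygenase gene of the cluster, was at 882, 889 and 953 FPKM in control, 673, 649 and 561 FPKM in dbdb, and 689, 819 and 811 FPKM in dbR mice. The dbR libraries lay between the other groups without overlap. For dbdb vs. control the log2 fold change was -0.54 ± 0.10 (adjusted p = 0.00335), for dbR vs. dbdb 0.30 ± 0.10 (adjusted p = 0.161) and for dbR vs. control -0.24 ± 0.10 (adjusted p = 0.107). Cyp2j11 had the same order, at 130, 122 and 145 FPKM in control, 103, 93.8 and 74.7 FPKM in dbdb, and 113, 120 and 121 FPKM in dbR mice. The log2 fold change came to -0.56 ± 0.11 for dbdb vs. control (adjusted p = 0.00534), 0.40 ± 0.11 for dbR vs. dbdb (adjusted p = 0.114) and -0.16 ± 0.11 for dbR vs. control (adjusted p = 0.323).

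Cyp2j6 was the gene of the cluster that was called higher. It was at 10.6, 10.8 and 10.7 FPKM in control, 15.3, 14.0 and 16.4 FPKM in dbdb, and 14.9, 15.5 and 14.2 FPKM in dbR mice. The control libraries were tightly grouped under both other groups, with a log2 fold change of 0.50 ± 0.07 for dbdb vs. control (adjusted p = 0.000793) and 0.47 ± 0.07 for dbR vs. control (adjusted p = 0.00128). Cyp2j7, Cyp2j8 and Cyp2j9, with means of 0.485 to 6.91 FPKM, did not pass the test in any comparison, although the dbdb libraries of Cyp2j8 and Cyp2j9 lay above the control libraries without overlap (log2 fold change 0.56 and 0.32). Summed over the 7 genes, CYP2J signal was 1280 ± 78.9 FPKM in control, 815 ± 83.0 FPKM in dbdb and 992 ± 90.0 FPKM in dbR mice (SD, n = 3), of which Cyp2j5 was the larger part.

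Cyp4b1 and Cyp2e1 were the most abundant P450 genes outside Cyp4a in control cortex, and both were lower in the db/db groups. Cyp4b1, which oxidises fatty acids and some foreign compounds, was at 1859, 1847 and 2451 FPKM in control, 679, 610 and 445 FPKM in dbdb, and 725, 873 and 947 FPKM in dbR mice. The 3 groups did not overlap, with dbR between the others. For dbdb vs. control the log2 fold change was -1.84 ± 0.17 (adjusted p = 9.78e-05), for dbR vs. control -1.27 ± 0.17 (adjusted p = 0.000773) and for dbR vs. dbdb 0.57 ± 0.17 (adjusted p = 0.144).

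Cyp2e1, which oxidises ethanol, acetone and other small molecules, was at 1502, 1330 and 1770 FPKM in control, 863, 724 and 585 FPKM in dbdb, and 620, 774 and 921 FPKM in dbR mice. The dbdb and dbR ranges overlapped in part, and all 6 libraries lay under the control libraries. The log2 fold change came to -1.09 ± 0.18 for dbdb vs. control (adjusted p = 0.00187), -1.0 ± 0.18 for dbR vs. control (adjusted p = 0.00317) and 0.09 ± 0.18 for dbR vs. dbdb (adjusted p = 0.833). Through these abundant genes the summed FPKM of all 41 genes was 5283 to 6813 in the control group, against 2504 to 3301 for dbdb and 3118 to 4183 for dbR mice, although more of the genes were higher than lower.

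The promoter of Cyp4b1 is shown because, of 6 genes lower in dbdb mice that had a promoter in the RefSeq table, it alone held TGTTCT, the core hexamer bound by the androgen and glucocorticoid receptors. The 250 bases before its start lie at chr4:115647722-115647971 of GRCm38.p6 on the reverse strand, with the hexamer in capitals.
Cyp4b1 promoter: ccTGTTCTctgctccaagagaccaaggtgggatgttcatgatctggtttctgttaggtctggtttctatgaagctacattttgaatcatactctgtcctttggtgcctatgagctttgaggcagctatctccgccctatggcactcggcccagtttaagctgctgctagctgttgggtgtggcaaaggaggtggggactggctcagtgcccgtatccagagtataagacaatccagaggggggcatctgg
TGTTCT, searched on both strands, was in 16.1% of 32851 promoters of the same length and in 11.4% of 35 promoter windows of these P450 genes. Among 9 genes higher in dbdb mice, Cyp2d26 and Cyp2j6 held it. AGGTCA, a hexamer bound by PPAR, RXR and other nuclear receptors, was in 14.0% of all promoters and 8.57% of the P450 windows, with Cyp2j5 the 1 gene among those lower and no gene among those higher. GCGTG, the core bound by the aryl hydrocarbon receptor with Arnt, was in 28.2% of all promoters and 34.3% of the P450 windows, among them Cyp2j13 of the lower genes and Cyp1b1, Cyp4f16 and Cyp4v3 of the higher genes. A match of letters is not a binding site, and 31 of the 41 genes had a promoter in the table.

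**Figure D3:**
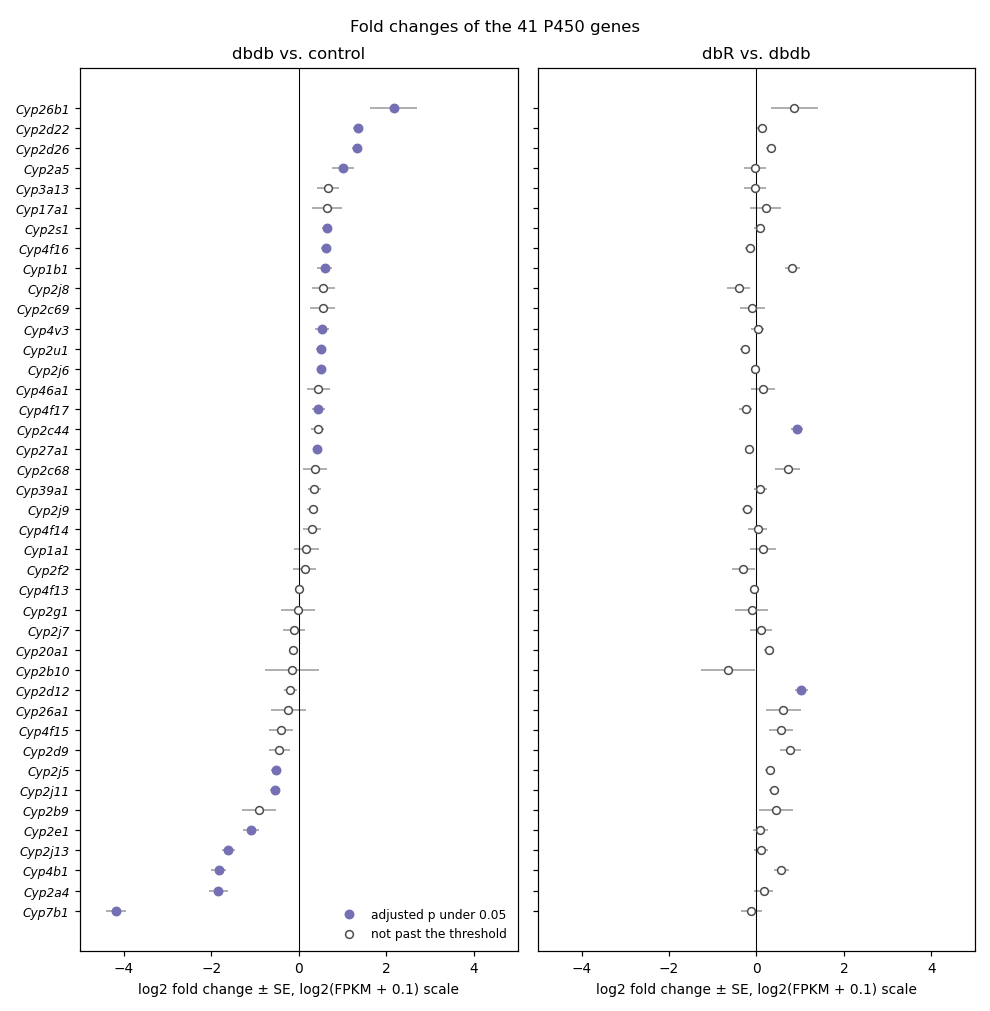
log2 fold change ± SE of the 41 P450 genes in dbdb vs. control (left) and in dbR vs. dbdb (right), in the order of the left panel, with filled points at an adjusted p under 0.05 in limma. The left panel runs from -4.19 for Cyp7b1 to 2.17 for Cyp26b1, and on the right only Cyp2c44 and Cyp2d12 are filled. Both panels use the same dbdb libraries.

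The CYP2D genes, a cluster on chromosome 15 and the mouse relatives of the human drug-metabolising CYP2D6, were higher or did not pass the test. All 4 measured of 9 matched lay at 11.9 FPKM or more on average. Cyp2d26 was at 86.0, 82.7 and 80.5 FPKM in control, 246, 220 and 168 FPKM in dbdb, and 248, 266 and 277 FPKM in dbR mice. All db/db libraries lay above the control libraries, and the log2 fold change was 1.33 ± 0.12 for dbdb vs. control (adjusted p = 7.12e-05) and 1.66 ± 0.12 for dbR vs. control (adjusted p = 2.75e-05). Cyp2d22 was at 5.69, 5.18 and 5.96 FPKM in control, 15.9, 15.3 and 12.3 FPKM in dbdb, and 16.1, 14.5 and 16.6 FPKM in dbR mice. Its log2 fold change was 1.35 ± 0.11 for dbdb vs. control (adjusted p = 3.49e-05) and 1.47 ± 0.11 for dbR vs. control (adjusted p = 2.76e-05).

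In Cyp2d12 and Cyp2d9 the dbdb mean was not above the control mean, and the dbR mean was the highest. Cyp2d12 was at 28.0, 28.0 and 34.9 FPKM in control, 25.8, 29.8 and 23.4 FPKM in dbdb, and 43.7, 53.4 and 65.6 FPKM in dbR mice. Control and dbdb libraries overlapped, and every dbR library was above both. For dbdb vs. control the log2 fold change was -0.20 ± 0.15 (adjusted p = 0.350), for dbR vs. dbdb 1.03 ± 0.15 (adjusted p = 0.0251) and for dbR vs. control 0.83 ± 0.15 (adjusted p = 0.00339). Cyp2d9, a testosterone hydroxylase, was at 123, 131 and 237 FPKM in control, 109, 131 and 106 FPKM in dbdb, and 164, 179 and 253 FPKM in dbR mice. Control replicate 3 stood within the dbR range, and Cyp2d9 did not pass the test in any comparison (log2 fold change 0.77 ± 0.24, adjusted p = 0.147 in dbR vs. dbdb). Without control replicate 3 it passed in dbR vs. control, at a log2 fold change of 0.62 (adjusted p = 0.0351) in place of 0.32 (adjusted p = 0.365).

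Among the CYP2C genes, Cyp2c44, an epoxygenase gene of mouse kidney on chromosome 19, was the 1 gene with substantial signal, and 3 of 15 matched were measured. It was at 28.3, 31.3 and 24.7 FPKM in control, 34.2, 48.1 and 32.3 FPKM in dbdb, and 65.3, 72.4 and 77.6 FPKM in dbR mice. The 3 groups did not overlap, in the order control, dbdb and dbR. The log2 fold change came to 0.43 ± 0.14 for dbdb vs. control (adjusted p = 0.0532), 0.93 ± 0.14 for dbR vs. dbdb (adjusted p = 0.0282) and 1.35 ± 0.14 for dbR vs. control (adjusted p = 0.000207). Cyp2c68 was at 0.351, 0.368 and 0.205 FPKM in control, 0.672, 0.364 and 0.285 FPKM in dbdb, and 0.616, 0.801 and 0.844 FPKM in dbR mice, and passed the test in dbR vs. control (1.08 ± 0.28, adjusted p = 0.0210). That call was lost without control replicate 3, dbR replicate 2 or dbR replicate 3, at adjusted p of 0.0732, 0.0650 and 0.0669. Cyp2c68 and Cyp2c69 are over 95% identical to other CYP2C genes in coding sequence (98.1% and 97.9% to Cyp2c40), so their separate values are uncertain, and Cyp2c69 did not pass the test.

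The Cyp2c44 and Cyp2d12 calls in dbR vs. dbdb were the only ones there, and neither was kept in every alternative. Both were lost without dbdb replicate 1, dbR replicate 2 or dbR replicate 3, at adjusted p of 0.0669, 0.149 and 0.0755 for Cyp2c44 and 0.0550, 0.116 and 0.0604 for Cyp2d12. Their log2 fold changes without any 1 of these stayed between 0.86 and 0.92 for Cyp2c44 and between 0.88 and 1.03 for Cyp2d12. At an unadjusted p under 0.05, 10 of the 41 genes passed, all of them higher in dbR mice and 0 lower, against 9.43% of all genes higher and 8.05% lower. Besides Cyp2c44 and Cyp2d12 these were Cyp1b1, Cyp2c68, Cyp2d26, Cyp2d9, Cyp2j11, Cyp2j5, Cyp4b1 and Cyp20a1. The groups did not overlap for 10 genes, against 22.7% of all genes, with 8 of the 10 higher in dbR mice (against 10.7% of all genes) and 2 lower (11.9%). The median log2 fold change of the 41 genes was 0.09.

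Cyp1b1, which hydroxylates estradiol and arachidonic acid, rose in dbdb vs. control and was highest in dbR mice. It was at 4.44, 3.53 and 3.67 FPKM in control, 4.81, 5.24 and 7.94 FPKM in dbdb, and 11.1, 10.6 and 9.60 FPKM in dbR mice. The 3 groups did not overlap, and dbdb replicate 3 stood nearest to the dbR libraries. For dbdb vs. control the log2 fold change was 0.59 ± 0.17 (adjusted p = 0.0292), for dbR vs. dbdb 0.82 ± 0.17 (adjusted p = 0.0568) and for dbR vs. control 1.41 ± 0.17 (adjusted p = 0.000387). The call in dbdb vs. control was lost in 7 alternatives, at adjusted p between 0.0505 and 0.0886, among them leaving out control replicate 2, control replicate 3 or dbdb replicate 3. Without dbdb replicate 3 the log2 fold change was 0.37 in place of 0.59. In dbR vs. dbdb it passed without dbdb replicate 3, at an adjusted p of 0.0221, and also with 75th percentile scaling, quantile normalization or a minimum of 1 FPKM. Cyp1a1, the other CYP1 gene measured and a standard readout of the aryl hydrocarbon receptor, was between 0.196 and 0.471 FPKM in all libraries and did not pass the test.

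**Figure D4:**
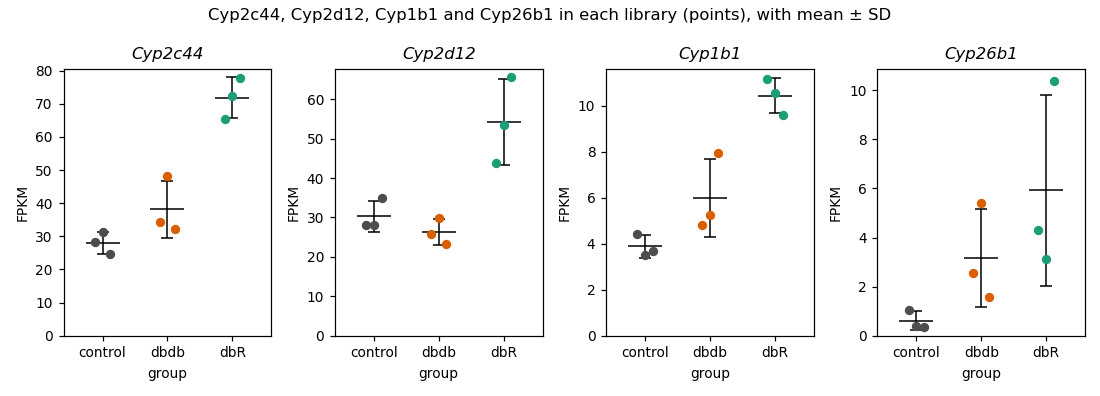
FPKM of Cyp2c44, Cyp2d12, Cyp1b1 and Cyp26b1 by group, with 1 point per library and the mean ± SD. The dbR libraries of Cyp2c44 (65.3 to 77.6 FPKM), Cyp2d12 (43.7 to 65.6 FPKM) and Cyp1b1 (9.60 to 11.1 FPKM) lie above all others, while those of Cyp26b1 overlap the dbdb libraries.

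The remaining genes that changed were of low level and were higher in dbdb mice. Cyp2s1, which acts on retinoids and eicosanoids, was at 4.15, 3.13 and 3.71 FPKM in control, 5.59, 5.38 and 6.34 FPKM in dbdb, and 6.28, 6.55 and 5.39 FPKM in dbR mice. The control libraries were lowest, with a log2 fold change of 0.65 ± 0.12 for dbdb vs. control (adjusted p = 0.00387) and 0.72 ± 0.12 for dbR vs. control (adjusted p = 0.00233). Cyp2u1, a fatty acid hydroxylase, was at 1.88, 2.31 and 1.83 FPKM in control, 2.65, 2.95 and 3.03 FPKM in dbdb, and 2.52, 2.18 and 2.47 FPKM in dbR mice. It passed the test in dbdb vs. control (0.51 ± 0.12, adjusted p = 0.0122), and the dbR libraries overlapped those of control.

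Cyp4f16, Cyp4f17 and Cyp4f13 belong to the CYP4F cluster on chromosome 17, whose enzymes include hydroxylases of leukotrienes and other fatty acids, and 5 of 9 matched were measured. Cyp4f16 was at 1.42, 1.31 and 1.39 FPKM in control, 2.28, 2.00 and 2.17 FPKM in dbdb, and 1.79, 2.05 and 1.96 FPKM in dbR mice. It was higher than control both in dbdb (0.61 ± 0.11, adjusted p = 0.00291) and in dbR mice (0.46 ± 0.11, adjusted p = 0.0122), and is uncertain because its coding sequence was 96.1% identical to that of Cyp4f37. Both calls were lost when single transcripts were tested, at adjusted p of 0.0970 and 0.384 for its main transcript. Cyp4f17 was at 2.1, 2.73 and 2.90 FPKM in control, 3.79, 3.76 and 3.03 FPKM in dbdb, and 2.81, 2.75 and 3.26 FPKM in dbR mice. Its call in dbdb vs. control (0.44 ± 0.14, adjusted p = 0.0448) was lost without control replicate 1, control replicate 2, dbdb replicate 1, dbdb replicate 2 or any 1 dbR replicate, at adjusted p between 0.0524 and 0.134. Cyp4f13, the most abundant of the cluster at 12.4, 12.4 and 13.2 FPKM in control, 13.3, 13.2 and 11.4 FPKM in dbdb, and 11.5, 12.8 and 11.9 FPKM in dbR mice, had overlapping groups and a log2 fold change of -0.01 ± 0.08 in dbdb vs. control (adjusted p = 0.947).

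Cyp4v3, a fatty acid hydroxylase gene, was at 1.48, 1.15 and 1.25 FPKM in control, 2.05, 1.61 and 2.08 FPKM in dbdb, and 1.90, 2.23 and 1.74 FPKM in dbR mice. All control libraries were lower than the others, with a log2 fold change of 0.53 ± 0.15 for dbdb vs. control (adjusted p = 0.0268) and 0.56 ± 0.15 for dbR vs. control (adjusted p = 0.0225). The call in dbdb vs. control was lost without control replicate 2, control replicate 3, dbdb replicate 1 or dbdb replicate 3, at adjusted p of 0.0862, 0.0738, 0.0794 and 0.0798. In dbR vs. control it was lost without control replicate 2, control replicate 3, dbR replicate 1 or dbR replicate 2, at adjusted p of 0.0746, 0.0650, 0.0551 and 0.0803. The drug-metabolising Cyp2b9, Cyp2b10 and Cyp3a13, the lung and liver gene Cyp2f2, the olfactory gene Cyp2g1, and Cyp4f14 and Cyp4f15 had means of 0.105 to 1.37 FPKM and did not pass the test in any comparison.

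Set against control, dbR mice had nearly as many changed genes as dbdb mice. In dbR vs. control 18 of the 41 genes passed, 13 higher and 5 lower, against 24.1% of all genes, 12.3% higher and 11.8% lower. Both comparisons share the control libraries, so their values stand side by side and calls in the same direction are not independent. The share of all genes called in both is not given here, so the overlap below is not read as particular to the P450 genes. Of the genes called in both, 10 were higher (Cyp1b1, Cyp2s1, Cyp2a5, Cyp2d22, Cyp2d26, Cyp2j6, Cyp4f16, Cyp4v3, Cyp26b1 and Cyp27a1) and 5 were lower (Cyp2a4, Cyp2e1, Cyp2j13, Cyp4b1 and Cyp7b1). Cyp2u1 and Cyp4f17 were higher and Cyp2j5 and Cyp2j11 lower in dbdb vs. control alone by the threshold, and Cyp2c44, Cyp2d12 and Cyp2c68 were higher in dbR vs. control alone. Whether such a gene differed between the comparisons is tested by dbR vs. dbdb, which Cyp2c44 and Cyp2d12 passed. Testing single transcripts in place of gene sums lost the calls of Cyp1b1, Cyp2a5, Cyp4f16, Cyp4f17, Cyp4v3 and Cyp26b1 in dbdb vs. control, and of Cyp2a5, Cyp2c68, Cyp4f16, Cyp4v3 and Cyp27a1 in dbR vs. control. Some genes were called under alternatives only. In dbdb vs. control these were Cyp2c44, Cyp2b9, Cyp2j9, Cyp3a13 and Cyp39a1, and in dbR vs. control they were Cyp2d9, Cyp2j5, Cyp3a13, Cyp39a1 and Cyp46a1. Cyp17a1 also passed there under an alternative, but no difference from control is read from it, as said above. The groups did not overlap for 25 genes in dbdb vs. control, against 42.4% of all genes, and for 24 in dbR vs. control, against 41.9%. Both counts include Cyp17a1, which reached the minimum through the db/db groups and so does not count as a difference from control.

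Partner proteins that feed electrons to P450 enzymes or handle their products moved in both directions. Of 12 genes tested, 3 were higher and 5 lower in dbdb vs. control, against 13.1% and 13.4% of all genes. In dbR vs. dbdb 0 passed in limma, against 0.743% of all genes, and 5 had an unadjusted p under 0.05, against 9.43% of all genes higher and 8.05% lower. Por, the reductase that serves the microsomal P450 enzymes, was at 155 ± 13.2 FPKM in control and 147 ± 14.1 FPKM in dbdb mice (adjusted p = 0.557). Cyb5a, the cytochrome that lends electrons to some of them, was lower (log2 fold change -0.86, adjusted p = 0.000413), as were Cyb5b, Cyb5r3, the mitochondrial ferredoxin Fdx1 and the soluble epoxide hydrolase Ephx2 (-0.70, adjusted p = 0.00223). The microsomal epoxide hydrolase Ephx1 was higher (0.94, adjusted p = 0.000524), and so were Pgrmc1 and Alas1, the first enzyme of haem synthesis (0.64, adjusted p = 0.0131).

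Of 17 regulators of P450 genes tested of 18, 4 were higher and 2 lower in dbdb vs. control, against 13.1% and 13.4% of all genes. Nr1i2 (the xenobiotic receptor PXR), Arnt, Ppara and Rxra were the higher ones, and the oxysterol receptor Nr1h3 and the glucocorticoid receptor Nr3c1 were lower. In dbR vs. dbdb 0 passed in limma, against 0.743% of all genes, and 2 had an unadjusted p under 0.05, against 9.43% of all genes higher and 8.05% lower. Nr1i2 had a log2 fold change of 0.65 (adjusted p = 0.00496) and Ppara one of 0.78 (adjusted p = 0.000151). Pparg, the receptor of rosiglitazone, was at 1.21 ± 0.917 FPKM in control, 0.392 ± 0.116 FPKM in dbdb and 0.818 ± 0.333 FPKM in dbR mice. Control replicate 2 stood apart at 2.26 FPKM, beside 0.812 and 0.563 FPKM in the other control libraries. Pparg did not pass in dbdb vs. control (adjusted p = 0.0635) or dbR vs. dbdb (adjusted p = 0.336). Of the P450 genes under other symbols, Cyp51, the sterol demethylase of cholesterol synthesis, was lower in dbdb vs. control (-2.43, adjusted p = 4.06e-06), as was the thromboxane synthase Tbxas1, while the prostacyclin synthase Ptgis was higher.

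Genes of other lists also differed between the groups, in both directions, and their part in these results was not tested. Over all genes, 13.1% were called higher and 13.4% lower in dbdb vs. control, and 12.3% and 11.8% in dbR vs. control. All 5 androgen-responsive kidney genes were lower in dbdb and in dbR mice than in control, with sums of 35615 to 46937 FPKM in control, 4915 to 5856 FPKM in dbdb and 6312 to 7799 FPKM in dbR mice. Kap, the kidney androgen-regulated protein, had a log2 fold change of -2.88 in dbdb vs. control (adjusted p = 1.36e-05). Of 4 markers of the late proximal tubule, 3 were lower in dbdb mice, and Slc7a13 was also higher in dbR vs. dbdb (1.04, adjusted p = 0.0282). The other marker, Slc5a1, was not called in dbdb vs. control (0.10, adjusted p = 0.355 in limma). In dbR vs. control 3 were lower and Slc5a1 was higher (0.44, adjusted p = 0.00283 in limma). The sums of these 4 were 456 to 649 FPKM in control, 87.9 to 95.3 FPKM in dbdb and 144 to 196 FPKM in dbR mice. Slc7a13 was the larger part of them, with means of 471 FPKM in control, 59.2 FPKM in dbdb and 124 FPKM in dbR mice.

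Of 4 thick limb and distal markers, 2 were higher in dbdb vs. control, with sums of 454 to 569 FPKM in control, 585 to 807 FPKM in dbdb and 650 to 724 FPKM in dbR mice. All 4 leukocyte markers were lower in dbdb vs. control and 2 of them in dbR vs. control, with sums of 17.2 to 20.3 FPKM in control, 6.38 to 8.59 FPKM in dbdb and 10.01 to 10.5 FPKM in dbR mice. Hepatocyte genes, 8 tested of 12, had sums of 36.5 to 44.5 FPKM in control, 47.5 to 56.3 FPKM in dbdb and 58.7 to 73.6 FPKM in dbR mice. In dbdb mice 3 of them were higher than in control, Alb (0.88, adjusted p = 0.00393), Fga (0.95, adjusted p = 0.000524) and Ttr (1.52, adjusted p = 0.0389), and in dbR mice these 3 and Serpinc1 were, with Alb at 1.60 (adjusted p = 0.000175). Ahsg and Tat were listed at 0 in every library. Adrenal cortex sums were 3.43 to 4.06 FPKM in control, 3.67 to 4.96 FPKM in dbdb and 3.51 to 5.38 FPKM in dbR mice, with the calls for Hsd3b1 and Akr1b7 given above. Adipocyte sums were 0.722 to 3.67 FPKM in control, 0.940 to 1.10 FPKM in dbdb and 0.560 to 1.57 FPKM in dbR mice. Of 4 adipocyte markers tested of 8, Cfd was lower in dbdb (-2.96, adjusted p = 0.0138) and in dbR mice (-3.16, adjusted p = 0.0108) than in control, and Plin4 was higher in dbdb mice (0.85, adjusted p = 0.0218). Control replicate 2 had 0.106 FPKM of Cfd, beside 1.64 and 1.88 FPKM in the other control libraries.

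Long non-coding RNAs near the P450 genes did not pass the test. Within 100 kb of the 41 genes lay 7 lncRNA transcripts, all tested, and 0 were called by limma in any comparison, against 5.77% of 2496 in dbdb vs. control, 0.0% in dbR vs. dbdb and 5.33% in dbR vs. control. At an unadjusted p under 0.05, 2 passed in dbdb vs. control (Gm17115 near Cyp4f15, and 4930534D22Rik, which overlaps Cyp2u1 on the opposite strand) and 0 in the other comparisons. The share of all lncRNA transcripts at that unadjusted p is not given here, so no excess near these genes is read from the count. RP23-267I20.3, which overlaps Cyp2a4 on the opposite strand, was at 2.66 FPKM on average in control, 2.26 FPKM in dbdb and 2.24 FPKM in dbR mice. The assembled transcript LNC_000313, 9487 bases from Cyp4b1, was at 3.04 FPKM in control, 1.99 FPKM in dbdb and 1.85 FPKM in dbR mice (adjusted p = 0.453 in dbdb vs. control).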

How the data were processed

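The renal cortex of 9 mice was sequenced, 3 per group with 1 library per mouse, and libraries were grouped by the sample titles. The authors removed ribosomal RNA, made directional libraries, aligned paired reads to the mouse genome (GRCm38.p2) with TopHat2 (2.0.9) and deposited the FPKM of each transcript from Cufflinks (2.1.1), which is divided by transcript length and mapped fragments and depends on how reads were divided between transcripts. Handling of reads that map to several places is not given in the sources used here.

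FPKM were summed per gene. Genes with a mean of at least 0.1 FPKM were fitted as log2(FPKM + 0.1) with limma (3.58.1, R 4.3.3), in 1 model of 3 groups with a variance trend. Tests were two-sided with Benjamini-Hochberg adjustment over 14537 genes, and a call needed an adjusted p under 0.05. The pseudocount understates the change of low genes. FPKM hold no counts, so no count test was run. Steps between low values put each library at 25.9 M to 33.0 M fragments, with an assumed fragment of 250 bases, so low genes rest on few fragments. On simulated data the fit recovered 82%, 83.5% and 84% of 200 genes changed by 1 on the log2 scale, among 14537 genes, in dbdb vs. control, dbR vs. dbdb and dbR vs. control. False calls were 6 of 170, 19 of 186 and 12 of 180 in the same order, above the nominal share in both comparisons of dbR mice. For a change of 2 on the log2 scale they were 6 of 198, 13 of 210 and 8 of 202, above the nominal share in dbR vs. dbdb only. Each setting was drawn once, so differences between the comparisons are not read from these counts.

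The genes and lists were chosen with earlier results of these data known. Values are given for every gene called in any comparison or with a mean of at least 10 FPKM. Coordinates are from GENCODE M21 and promoters from RefSeq (GRCm38.p6). Near-identical genes were found by blastn (2.17.0) of coding sequences at 95% identity over at least 80% of the length, in place of the planned protein comparison. Promoters of Cyp17a1, Cyp2c44, Cyp2d12, Cyp2d22, Cyp2g1, Cyp2j7, Cyp2u1, Cyp39a1, Cyp4f17 and Cyp7b1 were not used here. Alternatives were other pseudocounts, filters, scalings and fits, single transcripts, a replicate block and leaving out each library, and, chosen after seeing the data, the sum of Cyp2a4 and Cyp2a5.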

Additional observations from a re-analysis of the deposited data

How the results depend on the processing

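In dbdb vs. control the number of P450 genes called was 13 to 23 over the alternatives (19 as reported), 14 to 19 with 1 library left out, and 13 of the 19 were called in every one. The share of all features called there was 14.8% with single transcripts (13 P450 genes), 26.4% as reported and 30.7% without mitochondrial genes (23). It was 20.6% without control replicate 2 (14 P450 genes), and 21.4% without dbdb replicate 3 and 26.3% without dbR replicate 1 (19 each). The range of the P450 counts is thus not read as particular to these genes. In dbR vs. control the number of P450 genes called was 13 to 19 (18 as reported), 15 to 19 with 1 library left out, and 13 of the 18 were called in every one. The share of all features called in dbR vs. control was 13.3% (single transcripts) to 28.2% (a minimum of 1 FPKM), and 17.1% to 24.6% with 1 library left out. No called value changed sign. In dbR vs. dbdb, 2 were called as reported, 0 without the filter, 0 with the 6 libraries of the comparison, 0 without the variance trend and 0 with single transcripts (11, 11, 12 and 9 at an unadjusted p under 0.05 in limma, against 15.7%, 16.9%, 16.9% and 13.5% of all features), and 0 to 3 with 1 library left out. Neither of the 2 was called in every alternative. Over all features the share called fell from 0.743% to 0.176%, 0.151%, 0.124% and 0.028% in these 4 alternatives. With 1 library left out it ran from 0.0138% (without dbR replicate 2) to 0.97% (without dbdb replicate 3), so the 0.743% itself depends on single libraries. Fits with fewer libraries have fewer degrees of freedom. Both calls were kept without any 1 control replicate, without dbdb replicate 2 or 3 and without dbR replicate 1. The cause of the losses was not tested.

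Same-numbered libraries had correlations of their deviations of -0.17 to 0.06, so the numbers do not pair the mice. With the replicate block 18 genes were called in dbdb vs. control, 1 in dbR vs. dbdb and 17 in dbR vs. control, beside 23.0%, 0.158% and 20.8% of all genes. Scaling to equal sums without mitochondrial genes moved the median of all genes in dbdb vs. control to 0.15, and gave 16 P450 genes higher and 7 lower. Among all called genes it moved the share that was higher from 49.5% to 78.3% in dbdb vs. control, from 75.9% to 48.6% in dbR vs. dbdb and from 51.1% to 70.5% in dbR vs. control, and 75th percentile scaling moved the last to 62.3%.

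Differences near 0 that were not called changed sign. Leaving out 1 library gave log2 fold changes in dbR vs. dbdb of -0.0726 to 0.294 for Cyp2a4, -0.312 to 0.278 for Cyp2a5, -0.0538 to 0.24 for Cyp2e1, -0.0246 to 0.250 for Cyp2j13, -0.0919 to 0.0207 for Cyp2j6, -0.0818 to 0.109 for Cyp4v3 and -0.352 to 0.0619 for Cyp7b1, and of -0.0454 to 0.0601 for Cyp4f13 in dbdb vs. control. Quantile normalization gave -0.0442 for Cyp2e1 and -0.00845 for Cyp4v3 in dbR vs. dbdb. Scaling without mitochondrial genes gave -0.0284 for Cyp4v3 in dbR vs. dbdb. For Cyp4f13 it gave 0.148 in dbdb vs. control, with 0.0254 against control in dbR mice, and 75th percentile scaling gave 0.0171 in dbdb vs. control. The design has 3 mice per group, and groups of 3 were not searched for single libraries that stand apart.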
